A study of Mus musculus with 18 samples.

Results

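The potassium channel genes of the mouse hippocampus were taken as every row of the expression table whose symbol begins with *Kcn*, leaving out *Kcne2* and *Kcnj13*, which mark choroid plexus epithelium. Of the 15329 genes listed, 84 carried such a symbol and 82 remained. All 82 were found in the annotation, and 79 of them are protein coding. The other 3, *Kcnq1ot1*, *Kcnmb4os2* and *Kcnd3os*, are antisense RNAs whose symbols share the prefix. *Kcnrg* encodes a regulator and not a channel subunit.

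Potassium channels let potassium leave the neuron and so set its resting potential, repolarize the action potential and limit repetitive firing. Voltage-gated Kv channels are built from pore-forming subunits (Kv1 to Kv4, KCNQ and EAG-type), electrically silent subunits that only function beside Kv2 subunits, and auxiliary subunits such as the Kv channel-interacting proteins (KChIPs, *Kcnip* genes) that bind Kv4 channels. Calcium-activated channels (BK, from *Kcnma1* with its beta subunits, and SK, from *Kcnn* genes) couple calcium entry to the afterhyperpolarization. Inward rectifiers include the G protein-gated channels of pyramidal neurons and the astrocyte channel that takes up potassium, and 2-pore leak channels carry background current. In the hippocampus, A-type currents through Kv4 channels in dendrites and the M-current through KCNQ channels are known to restrain excitability and plasticity.

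Hippocampal RNA came from C57BL/6J mice of 8 to 10 weeks, wild-type (WT) or knockout for *Ccny*, the gene of cyclin Y, with 1 library per mouse and 3 mice per group. WT_Basal and KO_Basal mice were not trained, WT_OL and KO_OL mice had completed the original learning phase of the Morris water maze, a spatial task in which a hidden platform is found from cues around the pool, and WT_RL and KO_RL mice had completed original and then reversal learning, in which the platform is moved. The knockout was present in the whole animal as far as the labels say, and the allele is not given in the sources used here. The questions were whether training changed the potassium channel genes in each genotype, and whether the genotypes differed.

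Sequencing depth ran from 29248557 to 37915576 reads on the 15329 genes of a library. All untrained libraries, at up to 31509208 reads, lay below all trained ones, at 31830344 or more. The part of depth in the changes after training was not tested. Levels are given as CPM, the reads of a gene scaled to the size of its library, and 1 read was worth 0.0274 to 0.0333 CPM. *Ccny* was lower in KO than in WT over the 3 training states, by a log2 fold change of -0.72 ± 0.06 (SE, adjusted p = 3.3e-05), but was still read at 74.0 to 95.8 CPM in the KO libraries. Excitatory neuron markers were abundant throughout (summed 5133 to 6942 CPM). Oligodendrocyte markers ranged from 4491 to 10050 CPM, astrocyte markers from 2462 to 3734 CPM and dentate granule cell markers from 115 to 302 CPM. The part of such differences in the channel values was not tested. WT_OL replicate 2 stood apart, with the lowest dentate granule sum and the highest oligodendrocyte, astrocyte and excitatory neuron sums. It held the lowest of the 18 values for 30 of the 82 channel genes (36.6%), and the lowest value for 22.3% of all genes. The deviation of a gene from its mean over the 18 libraries was correlated with log transcript length at r = -0.47 there over all genes and also at -0.47 over the 82 channel genes. KO_RL replicate 2 went the other way, at 0.46 and 0.42, and WT_OL replicate 3 was at 0.35 and -0.01. The highest value lay in KO_RL replicate 2 for 14.6% of the members (9.35% of all genes). It lay in WT_RL replicate 3 for 17.1% (11.3%). KO_Basal replicate 1 held 81.8 CPM of hypothalamic marker RNA, against 0.396 to 2.82 CPM in the other libraries. Choroid plexus marker RNA ranged from 46.3 to 8565 CPM, and was 53.1 to 683 CPM in KO_Basal but 1365 to 5119 CPM in KO_OL and KO_RL. In whole tissue, fewer cells of a type and less RNA per cell cannot be told apart.

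The channel genes spanned a wide range of levels. All 82 had reads in every library. Averaged over the 18 mice, 15 genes were at 100 CPM or more, 35 between 10 and 100, 27 between 1 and 10, and 5 below 1. Per kilobase of the longest annotated transcript, which allows genes to be compared with each other, *Kcnab2* led with 181 ± 25.6 CPM per kb (SD, n = 18), followed among the genes described here by *Kcna1* with 60.8 ± 12.6, *Kcnip2* with 60.7 ± 8.1 and *Kcnj10* with 45.0 ± 8.76. *Kcnab2* encodes a cytoplasmic beta subunit of Kv1 channels, *Kcna1* the axonal subunit Kv1.1, *Kcnip2* the KChIP2 partner of Kv4 channels, and *Kcnj10* the astrocyte channel Kir4.1. The lowest mouse for *Kcnab2* (129 CPM per kb) lay above the highest mouse for *Kcna1* (80.4), whereas *Kcna1*, *Kcnip2* and *Kcnj10* overlapped in range over the mice.

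**Figure D1:**
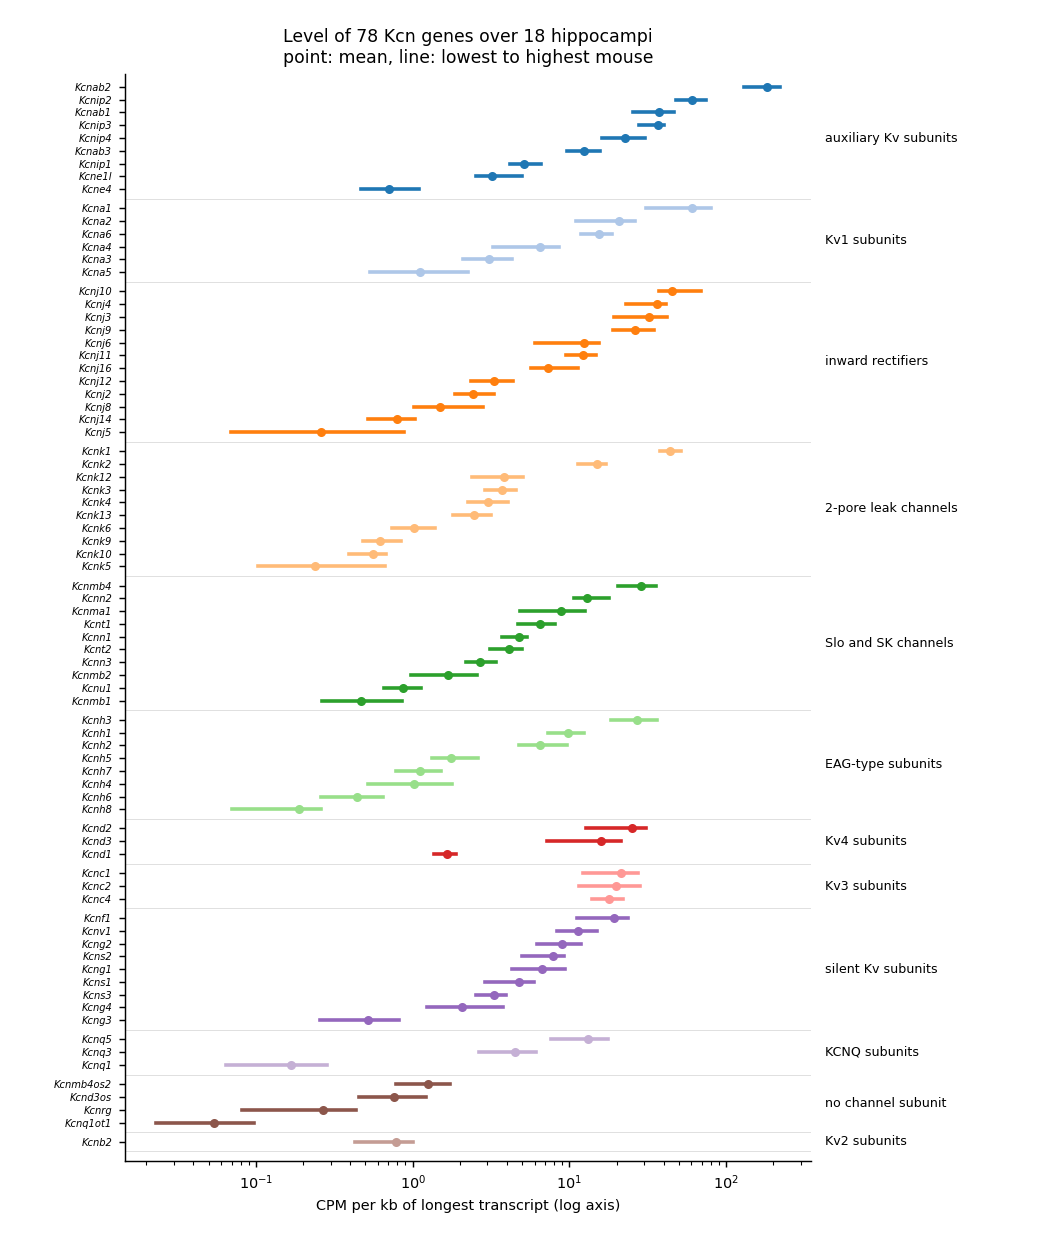
Level of 78 *Kcn* genes by subfamily, in CPM per kb of the longest transcript on a log axis, with the mean of 18 mice as a point and the lowest to the highest mouse as a line. *Kcnab2* is the highest at 181 CPM per kb, and its lowest mouse (129) lies above the highest mouse of *Kcna1* (80.4).

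Within every subfamily 1 or a few members dominated. Among leak channels, *Kcnk1* was at 43.9 ± 3.82 CPM per kb and *Kcnk2* at 15.0 ± 1.53, while *Kcnk5* was at 0.237 ± 0.131. Among the inward rectifiers, the G protein-gated subunits *Kcnj3* (32.4 ± 5.58) and *Kcnj9* (26.0 ± 3.46) were well above *Kcnj5* (0.261 ± 0.18), the subunit best known from the heart. The Kv3 subunits *Kcnc4* and *Kcnc1*, which allow fast spiking, were close together at 17.8 ± 2.27 and 21.4 ± 3.54 CPM per kb. *Kcna1* varied 2.6-fold between the lowest and the highest mouse, and *Kcnk1* 1.36-fold.

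After training the channel genes moved in both directions, at a rate no higher than that of other genes. In WT mice after original learning, 6 of the 82 members (7.32%) had an adjusted p under 0.05, against 9.5% of all 15329 genes. All 6 were lower, while 5.62% of all genes were called lower and 3.88% higher. After reversal learning 12 members (14.6%) differed from WT_Basal, 7 higher and 5 lower, against 15.7% of all genes (8.28% higher and 7.42% lower). In KO mice 13 members (15.9%), 7 higher and 6 lower, differed after original learning, against 23.5% of all genes (11.2% higher and 12.3% lower). After reversal learning 15 members (18.3%), 10 higher and 5 lower, differed from KO_Basal, against 23.6% of all genes (11.6% higher and 12% lower). The median log2 fold change of the members in these 4 comparisons was -0.03, 0.07, 0.02 and 0.08, and that of all genes was 0.00, 0.00, -0.01 and 0.00. Both trained groups of a genotype were compared with the same 3 untrained mice, so these are not separate replications. Altogether 26 members were called in at least 1 comparison and 56 in none. *Kcnip4*, *Kcnmb2* and *Kcnv1* were called, each time lower, in all 4.

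**Figure D2:**
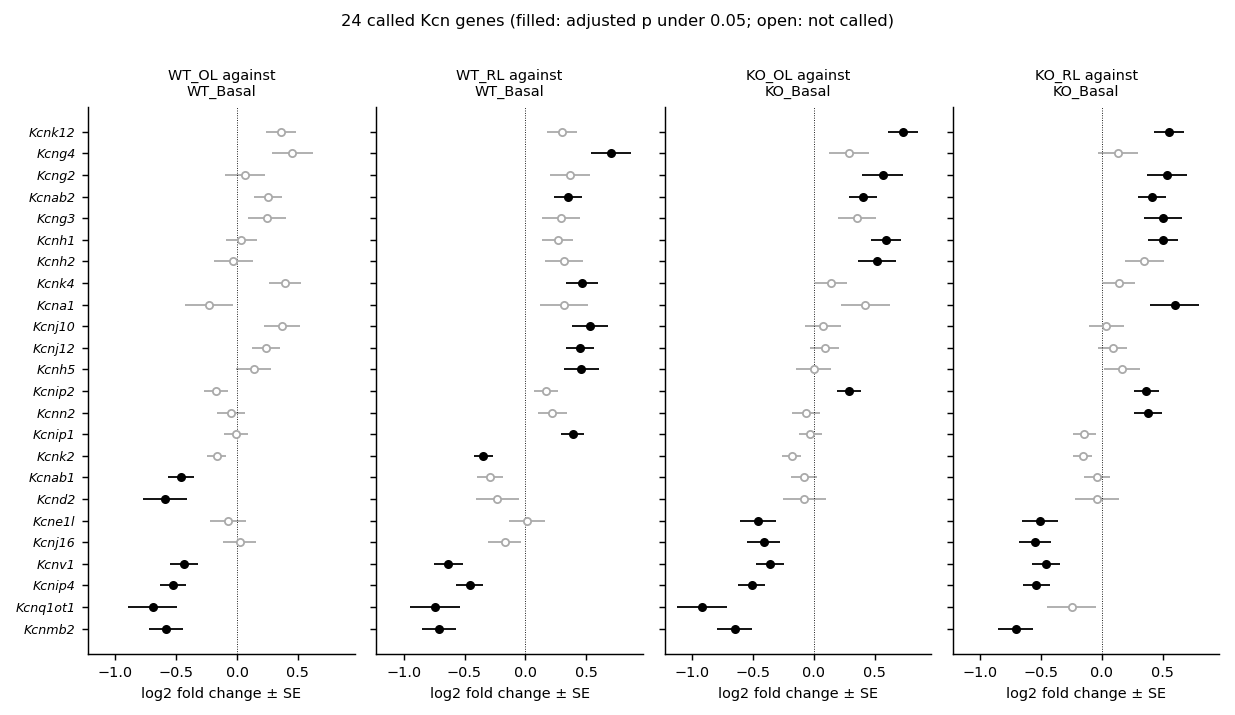
Fitted log2 fold change against untrained mice of the same genotype, with its SE, for 24 of the 26 *Kcn* genes called in any comparison, in 4 panels by comparison (3 mice per group). Filled points have an adjusted p under 0.05. *Kcnip4*, *Kcnmb2* and *Kcnv1* are filled and below 0 in each panel.

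These counts depended on how the values were treated. Leaving out 1 mouse at a time gave 2 to 13 calls for WT_OL, 5 to 12 for WT_RL, 6 to 11 for KO_OL and 4 to 14 for KO_RL. The share of all genes called moved as well, over 4.1% to 16.3%, 7.42% to 15.2%, 14.5% to 19.1% and 13.6% to 21%. For WT_OL the 2 calls arose without WT_Basal replicate 2 and the 13 without WT_OL replicate 3. Without WT_OL replicate 2 there were 3, and without WT_OL replicate 1, WT_Basal replicate 1 or WT_Basal replicate 3 also 3 each. For WT_RL, 5 calls remained without WT_Basal replicate 1 and 7 without WT_Basal replicate 3 or WT_RL replicate 2. For KO_OL, 6 were made without KO_Basal replicate 2, KO_OL replicate 1 or KO_OL replicate 3, and 8 without KO_Basal replicate 1. For KO_RL, 4 were made without KO_Basal replicate 1, 9 without KO_Basal replicate 2 and 8 without KO_RL replicate 3. Some members not called with all mice were called without 1 mouse, among them *Kcna2*, *Kcna4*, *Kcnb2*, *Kcnd3*, *Kcnj3*, *Kcnj8*, *Kcnk4* and *Kcns2* for WT_OL without WT_OL replicate 3. For WT_RL they were *Kcnh1* without WT_RL replicate 2 and *Kcnc4* and *Kcnk12* without WT_RL replicate 3. For KO_OL they were *Kcna6* without KO_Basal replicate 3 and *Kcnab3* and *Kcnd3os* without KO_Basal replicate 1, and for KO_RL they included *Kcnj11* without KO_RL replicate 1 and *Kcnj9*, *Kcnj14* and *Kcnk1* without KO_RL replicate 2. Of the 46 calls, 13 held in each fit that left out 1 mouse, and every one of the 46 kept its direction under all alternatives.

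The calls also moved with base composition. All 6 untrained libraries held less RNA of GC-rich genes than the average library (r = -0.47 to -0.29 over all genes between a gene's deviation and its GC content), and the 12 trained libraries ranged from -0.01 to 0.34. Over the 82 members, the log2 fold change after training was correlated with GC content at r = 0.60 for WT_OL, 0.37 for WT_RL, 0.45 for KO_OL and 0.33 for KO_RL, and at 0.55, 0.42, 0.37 and 0.33 over the 15220 genes with a GC value. Members called lower had a median GC content of 40.3% to 41.0% in the 4 comparisons, and members called higher one of 54.0% to 58.0% in the 3 comparisons that had any. When a smooth trend with GC content was removed from each library, 0, 5, 7 and 6 members were called for WT_OL, WT_RL, KO_OL and KO_RL. The shares of all genes called were then 2.04%, 6.91%, 14.1% and 16.8%. Of the 46 calls of members, 14 remained. Those were *Kcnj10*, *Kcnk2*, *Kcnip1*, *Kcnv1* and *Kcng4* for WT_RL, *Kcnh1*, *Kcnk12*, *Kcnq1ot1* and *Kcne1l* for KO_OL, and *Kcnh1*, *Kcnj16*, *Kcnmb2*, *Kcnip4* and *Kcne1l* for KO_RL. With a trend with GC content and length removed, 9 remained, which were *Kcnk2*, *Kcnip1*, *Kcnv1* and *Kcng4* for WT_RL, the same 4 genes for KO_OL, and *Kcne1l* for KO_RL. In that setting 0, 4, 6 and 2 members were called, and 3.15%, 8.41%, 14.2% and 11.6% of all genes. Whether the trend lies in the libraries or in the tissue cannot be told apart, since training and the trend went together.

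**Figure D3:**
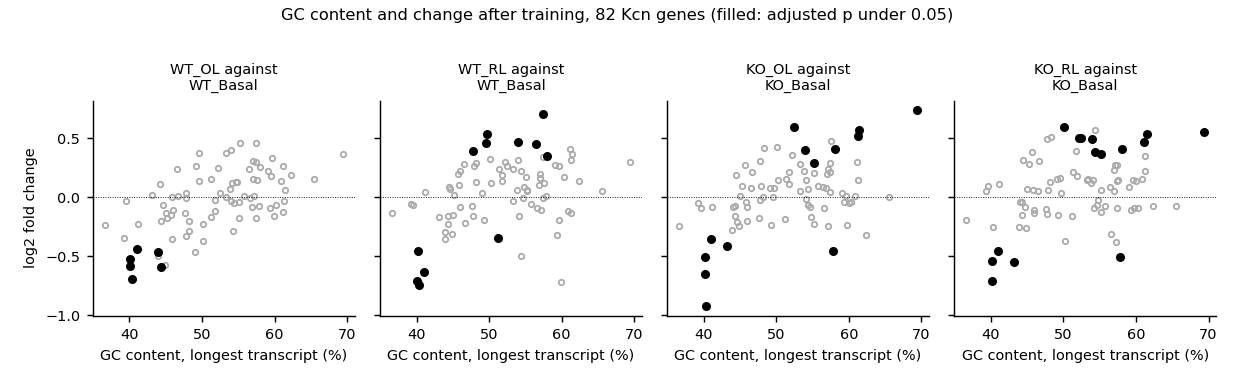
GC content of the longest transcript (%) against the log2 fold change after training for the 82 *Kcn* genes, in 4 panels by comparison, with the members called at an adjusted p under 0.05 filled. The filled points below 0 lie mostly near 40% GC, and the correlation over the members is between 0.33 and 0.60.

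Among the genes of the A-type channel complex, *Kcnip4* was lower in all trained groups. It encodes KChIP4, a calcium-binding subunit that slows inactivation of Kv4 channels, and lies on chromosome 5 (chr5:48389502-49524907, minus strand, GRCm38). It was read at 62.2, 68.9 and 72.4 CPM in WT_Basal and at 65.8, 65.5 and 71.8 CPM in KO_Basal. It was at 46.7, 38.7 and 56.3 CPM in WT_OL and 50.7, 44.8 and 51.9 CPM in WT_RL. The KO mice had 51.6, 47.6 and 42.9 CPM after original learning and 44.3, 47.0 and 47.6 CPM after reversal learning. All 12 trained mice lay below all 6 untrained mice. The log2 fold change was -0.53 ± 0.11 (SE) for WT_OL (adjusted p = 0.00748), -0.46 ± 0.11 for WT_RL (0.0109), -0.51 ± 0.11 for KO_OL (0.00362) and -0.54 ± 0.11 for KO_RL (0.00249). The call was kept in each fit without 1 mouse except for WT_RL, where it was lost without WT_Basal replicate 3 (adjusted p = 0.0565) or WT_RL replicate 2 (0.0508). Its transcript has a GC content of 40.1%. With GC content taken out, the change was -0.29, -0.22, -0.24 and -0.31 and the call remained in KO_RL (adjusted p = 0.0354) but not in WT_OL (0.15), WT_RL (0.173) or KO_OL (0.0998). With GC content and length taken out, the KO_RL change was -0.22 (0.222) and no call remained.

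The other KChIP genes did not follow *Kcnip4*. *Kcnip2* was at 162, 179 and 160 CPM in KO_Basal, 213, 186 and 213 CPM in KO_OL and 210, 203 and 232 CPM in KO_RL, with no overlap, and rose by 0.29 ± 0.10 (adjusted p = 0.0447) and 0.37 ± 0.10 (0.0144). In WT mice it was at 180, 186 and 178 CPM untrained, 150, 150 and 183 CPM after original learning and 226, 213 and 175 CPM after reversal learning, and neither comparison was called. The KO_OL call was lost without 1 of KO_Basal replicates 1, 2 or 3 or KO_OL replicates 1 or 3 (adjusted p = 0.0502 to 0.141), and the KO_RL call without KO_Basal replicate 1 (0.0578) or KO_RL replicate 3 (0.0716). Both were lost with GC content taken out (0.19 and 0.27, 0.233 and 0.0893). *Kcnip1*, which marks subsets of interneurons, rose in WT_RL by 0.39 ± 0.10 (adjusted p = 0.0138), from 17.1, 20.0 and 20.5 CPM to 23.1, 26.2 and 27.0 CPM, with the call lost without WT_Basal replicate 1 (0.079). It kept its call with GC content taken out (0.40, adjusted p = 0.0173). *Kcnip3*, also known as the transcription repressor DREAM, was read at 75.9 to 110 CPM over the 18 mice and was called nowhere, with a smallest adjusted p of 0.447.

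The pore-forming partners of the KChIPs gave a less stable picture. *Kcnd2*, which encodes the dendritic A-type subunit Kv4.2, was at 151, 158 and 144 CPM in WT_Basal and at 112, 65.8 and 134 CPM in WT_OL, a log2 fold change of -0.59 ± 0.18 (adjusted p = 0.0461). The groups did not overlap, but the lowest value was that of WT_OL replicate 2, and the call held in only 1 of the 6 fits without 1 mouse. It was lost without WT_OL replicate 1 (0.0533) or 2 (0.139) and without WT_Basal replicate 1 (0.116), 2 (0.117) or 3 (0.101), and also with GC content taken out (0.163). In the other trained groups *Kcnd2* was read at 114 to 142 CPM and was not called. *Kcnd3* and *Kcnd1* were called in none of the 12 comparisons. Of the transmembrane partners of Kv4 channels, *Dpp6* was called nowhere and *Dpp10* fell in KO_RL by 0.62 ± 0.19 on the log2 scale (adjusted p = 0.0283), from 122, 92.1 and 72.0 CPM in KO_Basal to 51.9, 74.2 and 56.8 CPM, with overlapping groups.

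The promoters of 2 genes called lower and 2 called higher in more than 1 comparison are shown. They were taken from RefSeq on GRCm38.p6 as the 250 bases before an annotated start, in the direction of transcription. Capitals mark a match to the AP-1 motif TGANTCA, the binding site of Fos and Jun proteins. The windows are *Kcnip4* (chr5:49285660-49285909, minus strand), *Kcnmb2* (chr3:31902453-31902702, plus strand), *Kcnh1* (chr1:192190527-192190776, plus strand) and *Kcnk12* (chr17:87797995-87798244, minus strand). The *Kcnip4* window belongs to a start inside the gene, which on the minus strand begins at 49524907. Whether this start was used in these mice was not tested.
*Kcnip4*: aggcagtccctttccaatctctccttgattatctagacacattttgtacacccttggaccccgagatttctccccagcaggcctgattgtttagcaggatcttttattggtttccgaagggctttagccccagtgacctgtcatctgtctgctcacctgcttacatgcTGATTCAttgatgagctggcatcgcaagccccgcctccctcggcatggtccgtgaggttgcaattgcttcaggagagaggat
*Kcnmb2*: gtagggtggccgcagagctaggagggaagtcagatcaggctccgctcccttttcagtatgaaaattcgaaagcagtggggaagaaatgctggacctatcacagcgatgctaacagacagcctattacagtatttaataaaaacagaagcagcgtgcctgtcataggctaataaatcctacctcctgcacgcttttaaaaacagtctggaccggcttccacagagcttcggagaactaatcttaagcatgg
*Kcnh1*: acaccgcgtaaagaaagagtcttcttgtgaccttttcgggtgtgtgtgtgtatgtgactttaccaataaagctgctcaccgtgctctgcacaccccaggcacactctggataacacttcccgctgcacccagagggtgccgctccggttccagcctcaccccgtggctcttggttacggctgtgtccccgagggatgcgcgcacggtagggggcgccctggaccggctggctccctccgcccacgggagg
*Kcnk12*: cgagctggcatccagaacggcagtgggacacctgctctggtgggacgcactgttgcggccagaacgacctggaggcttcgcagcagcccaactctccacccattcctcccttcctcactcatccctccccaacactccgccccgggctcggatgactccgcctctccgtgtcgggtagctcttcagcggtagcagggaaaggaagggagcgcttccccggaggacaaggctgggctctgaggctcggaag

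The printed window of *Kcnip4* had a GC content of 51.2% with 6 CpG dinucleotides, and a second annotated start of the gene 59.2% with 5 and no match. The window of *Kcnmb2* had 47.2% with 8, that of *Kcnh1* 62.0% with 17 and that of *Kcnk12* 64.8% with 16. The 4 starts of *Kcnk2*, a gene lower in WT_RL, ranged from 42.4% with 5 to 74.4% with 27, and 1 of them held an AP-1 match beginning 126 bases before the start. The windows of *Kcnip4* and *Kcnmb2* lay below those of *Kcnh1* and *Kcnk12* in GC content and CpG count. The 4 starts of *Kcnk2* lay on both sides of these. The AP-1 match in *Kcnip4* began 82 bases before the start. Promoters of 59 of the 82 members were matched by symbol. On either strand, TGANTCA was found in 3 of their 82 starts (3.66%), at *Kcnip3*, *Kcnip4* and *Kcnk2*, and in 6.75% of all 32851 starts. The cyclic AMP response element TGACGTCA (1.55% of all starts) and the Egr site GCGTGGGCG (0.536%) had no match at the members. A match describes the letters in the window and was not tested for binding.

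*Kcnmb2* and *Kcnv1*, the other members called lower in all 4 comparisons, belong to different channels. *Kcnmb2* encodes the beta2 subunit that makes BK channels inactivate. It was at 6.29, 7.56 and 6.53 CPM in WT_Basal and 7.50, 6.11 and 7.13 CPM in KO_Basal. After training it was at 4.09, 3.98 and 4.50 CPM in WT_OL, 4.42, 3.62 and 3.30 CPM in WT_RL, 4.51, 3.89 and 3.73 CPM in KO_OL and 2.85, 5.04 and 3.84 CPM in KO_RL. No trained mouse reached the lowest untrained mouse. The log2 fold changes were -0.58 ± 0.14, -0.71 ± 0.14, -0.65 ± 0.14 and -0.71 ± 0.14 in that order of groups, with adjusted p of 0.0163, 0.00373, 0.00395 and 0.00222. The WT_OL call was lost without WT_Basal replicate 2 (0.0674) or WT_OL replicate 2 (0.0547). With GC content taken out (40.1% GC) the changes were -0.34, -0.47, -0.38 and -0.48, and the KO_RL call was kept (0.0294), with 0.249, 0.055 and 0.0803 for WT_OL, WT_RL and KO_OL. With GC content and length taken out the KO_RL call was lost too (-0.42, 0.076).

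*Kcnv1* encodes Kv8.1, a silent subunit that reduces Kv2 currents. It was at 62.2, 64.3 and 59.7 CPM in WT_Basal, 42.6, 48.8 and 45.4 CPM in WT_OL and 46.9, 36.7 and 36.3 CPM in WT_RL. In KO mice the untrained values were 66.0, 65.3 and 48.7 CPM, and the trained ones 46.5, 50.9 and 41.6 CPM for KO_OL and 41.9, 44.9 and 42.2 CPM for KO_RL. Only KO_OL overlapped its untrained group. The log2 fold changes were -0.44 ± 0.12 for WT_OL (adjusted p = 0.0252), -0.63 ± 0.12 for WT_RL (0.00224), -0.36 ± 0.12 for KO_OL (0.0344) and -0.46 ± 0.12 for KO_RL (0.00943). The WT_RL call was made under every alternative, GC content included (-0.43, adjusted p = 0.0476). The other 3 calls were lost with GC content taken out (41.0% GC). The changes were then -0.22 for WT_OL (0.413), -0.13 for KO_OL (0.505) and -0.27 for KO_RL (0.144). The WT_OL call was lost without WT_OL replicate 1 or any 1 of the WT_Basal mice (0.0629 to 0.0804). The KO_OL call was lost without KO_Basal replicate 1 (0.147), KO_Basal replicate 2 (0.135), KO_OL replicate 1 (0.0805) or KO_OL replicate 3 (0.144), and the KO_RL call without KO_Basal replicate 1 (0.0571) or 2 (0.0515).

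**Figure D4:**
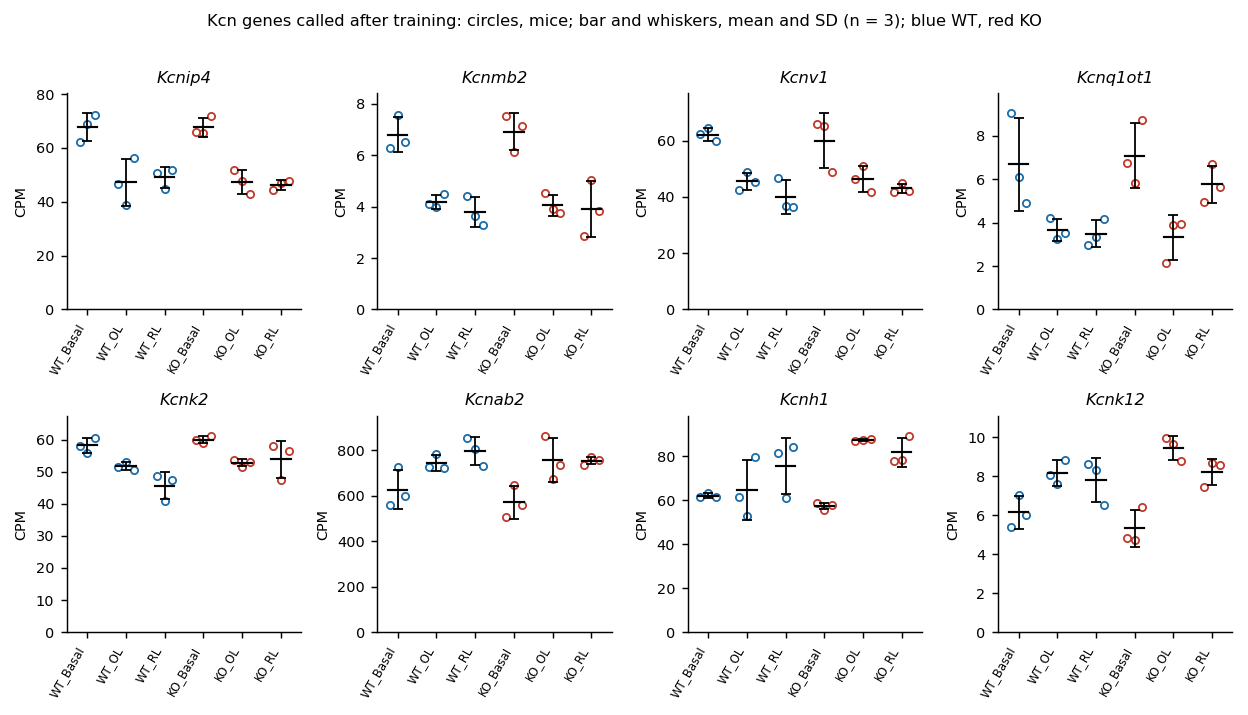
CPM per mouse (circles) with the mean and SD of 3 mice for 8 *Kcn* genes called after training, WT in blue and KO in red. *Kcnip4* and *Kcnmb2* are lower in every trained mouse than in any untrained mouse, and *Kcnh1* is near 87 CPM in all 3 KO_OL mice against 55.7 to 58.6 CPM in KO_Basal.

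The other silent subunits rose where they were called. *Kcng2* was at 19.9, 20.4 and 20.6 CPM in KO_Basal, 33.5, 25.8 and 32.9 CPM in KO_OL and 27.6, 28.7 and 33.4 CPM in KO_RL, with log2 fold changes of 0.57 ± 0.16 (adjusted p = 0.0209) and 0.53 ± 0.16 (0.0285). These were lost in 4 and 5 of the 6 fits without 1 mouse (0.0524 to 0.111) and with GC content taken out (0.105 and 0.122). *Kcng3* was at 1.40, 1.04 and 1.76 CPM in KO_Basal and 2.37, 2.75 and 2.05 CPM in KO_RL, a change of 0.50 ± 0.16 (0.0296), lost without KO_Basal replicates 1 or 2 or KO_RL replicates 1 or 2 (0.0665 to 0.131) or with GC content taken out (0.0703). *Kcng4* was at 6.36, 7.93 and 6.08 CPM in WT_Basal and 7.88, 13.7 and 14.3 CPM in WT_RL, with 1 mouse inside the untrained range, a change of 0.70 ± 0.16 (0.0099), which was 0.60 with GC content taken out (0.0296) and lost its call without WT_Basal replicate 3 (0.0512). *Kcnf1* and *Kcns2*, which also modulate Kv2 channels, were called in no comparison, at 53.2 to 113 CPM and 27.1 to 50.6 CPM over the 18 mice. *Kcng1*, *Kcns1* and *Kcns3* were not called either.

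*Amigo1*, an adhesion protein that binds Kv channels, was not called in any comparison. Among the 6 Kv1 subunits only *Kcna1* was called. It was at 167, 196 and 205 CPM in KO_Basal and 273, 300 and 285 CPM in KO_RL, a change of 0.60 ± 0.20 (adjusted p = 0.0388), and the call was lost in each of the 6 fits without 1 mouse (0.0509 to 0.145) and with GC content taken out (0.0615). *Kcna2*, its usual partner in juxtaparanodes, was at 127 CPM in WT_OL replicate 2 and at 217 to 304 CPM in the other 17 mice. *Kcna4*, which encodes the A-type subunit Kv1.4, was at 39.1, 40.9 and 35.0 CPM in WT_Basal and 30.1, 15.6 and 34.4 CPM in WT_OL, with an adjusted p of 0.0649.

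Of the cytoplasmic beta subunits of Kv1 channels, *Kcnab2* was called higher and *Kcnab1* lower, but not in the same comparison. *Kcnab2* was at 559, 725 and 597 CPM in WT_Basal and 852, 807 and 731 CPM in WT_RL, and at 507, 648 and 558 CPM in KO_Basal, 864, 673 and 733 CPM in KO_OL and 737, 770 and 758 CPM in KO_RL, with no overlap between trained and untrained mice in any of the 3. It rose by 0.35 ± 0.11 in WT_RL (adjusted p = 0.047), 0.41 ± 0.11 in KO_OL (0.0175) and 0.41 ± 0.11 in KO_RL (0.0168). With a GC content of 58.0%, it kept none of the 3 calls once GC content was taken out (0.0919 to 0.224). The WT_RL call was lost without WT_Basal replicates 1 or 3 or WT_RL replicates 1 or 2 (0.112 to 0.196), the KO_OL call without KO_Basal replicate 1 (0.0931) or KO_OL replicate 1 (0.0966), and the KO_RL call without KO_Basal replicate 1 (0.0943) or KO_RL replicate 3 (0.0516). *Kcnab1*, which confers inactivation on Kv1 channels, was at 185, 193 and 202 CPM in WT_Basal and 151, 112 and 163 CPM in WT_OL, a change of -0.46 ± 0.11 (0.0129) that was lost without WT_Basal replicate 3 (0.0622) or with GC content taken out (0.111). *Kcnab3* was called nowhere. *Kcne1l*, an X-linked single-span accessory subunit, was at 7.63, 5.82 and 5.53 CPM in KO_Basal, 3.99, 4.32 and 4.60 CPM in KO_OL and 4.25, 4.06 and 4.02 CPM in KO_RL. Its changes of -0.46 ± 0.15 (0.0323) and -0.51 ± 0.15 (0.0191) were larger with GC content taken out (-0.57 and -0.62, 0.0138 and 0.00768), but were lost without KO_Basal replicate 1 (0.157 and 0.108), and in 4 and 1 further fits without 1 mouse.

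*Kcnc1*, the Kv3.1 subunit of fast-spiking interneurons, was at 94.8 CPM in WT_OL replicate 2 and 139 to 213 CPM in the other 17 mice, and was not called. Inhibitory neuron markers were summed to 755 CPM in WT_OL replicate 2 and 826 to 1032 CPM in the others.

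*Kcnh1*, which encodes the ether-a-go-go channel Kv10.1, was called higher in both trained KO groups. It lies on chromosome 1 (chr1:192190774-192510159, plus strand). It was at 58.6, 55.7 and 57.8 CPM in KO_Basal, 86.7, 87.1 and 87.6 CPM in KO_OL and 77.6, 78.3 and 89.2 CPM in KO_RL. The groups were well apart, and the changes of 0.60 ± 0.12 (adjusted p = 0.0031) and 0.50 ± 0.12 (0.00894) were called in each fit without 1 mouse and with GC content taken out (0.52 and 0.43, 0.0164 and 0.0348). With GC content and length taken out they were 0.45 (0.0043) and 0.28 (0.0509), and the KO_RL call was lost. In WT mice it was at 61.6, 63.1 and 61.4 CPM untrained, 61.5, 52.7 and 79.5 CPM after original learning and 81.4, 60.9 and 84.1 CPM after reversal learning, with overlap and no call in both. Without WT_RL replicate 2, WT_RL was called as well. Of the 8 EAG-type genes, *Kcnh2* and *Kcnh5* were also called, in 1 comparison each. *Kcnh2*, of the ERG channel, was at 24.7, 23.0 and 20.0 CPM in KO_Basal and 30.6, 29.0 and 39.3 CPM in KO_OL, a change of 0.52 ± 0.16 (0.0258), lost without KO_Basal replicates 2 (0.0576) or 3 (0.093) or KO_OL replicate 3 (0.126), and with GC content taken out (0.118). *Kcnh5* was at 5.53, 5.43 and 7.48 CPM in WT_Basal and 6.97, 8.99 and 10.6 CPM in WT_RL, a change of 0.46 ± 0.15 (0.0411) with overlap, lost in 4 of 6 fits without 1 mouse (0.105 to 0.15) and with GC content taken out (0.068). *Kcnh7* was at 10.4 to 20.3 CPM and was called nowhere.

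Among the KCNQ subunits that form M-channels, *Kcnq3* was at 31.2 to 72.5 CPM over all mice and had no call, nor had *Kcnq5* at 53.3 to 123 CPM. For both genes, the lowest value was that of WT_OL replicate 2 and the highest that of KO_RL replicate 2.

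Among the remaining calcium- and sodium-activated channels, *Kcnn2*, the SK2 subunit of hippocampal spines, rose in KO_RL to 52.5, 66.1 and 60.7 CPM from 39.6, 47.4 and 50.3 CPM, a change of 0.38 ± 0.12 (adjusted p = 0.0284). This call was lost without KO_Basal replicates 1 (0.145) or 2 (0.0534) or KO_RL replicates 2 (0.11) or 3 (0.0824), or with GC content taken out (0.135). *Kcnn1* (15.0 to 21.8 CPM) and *Kcnn3* (18.2 to 28.4 CPM) were not called. Neither were *Kcnma1*, the pore of the BK channel, at 58.8 CPM in WT_OL replicate 2 and 85.6 to 152 CPM elsewhere, its neuronal beta subunit *Kcnmb4* (33.4 to 58.2 CPM), or the sodium-activated *Kcnt1* (31.4 to 53.9 CPM). Of the BK pore and its 3 listed beta subunits, *Kcnmb2* alone was called.

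Of the 12 inward rectifier genes, *Kcnj10*, *Kcnj12* and *Kcnj16* were called. *Kcnj10*, the astrocyte channel, was at 201, 202 and 218 CPM in WT_Basal and at 217, 330 and 375 CPM in WT_RL, a change of 0.53 ± 0.15 (adjusted p = 0.0218), with 1 WT_RL mouse inside the untrained range. The call was lost without any 1 of the WT_Basal mice or without WT_RL replicates 2 or 3 (0.0513 to 0.0845). Astrocyte markers were summed to 2796, 3524 and 2669 CPM in the same 3 WT_RL mice and 2484 to 2833 CPM in WT_Basal, and choroid plexus markers to 46.3, 864 and 8565 CPM. Thalamus and habenula markers were summed to 94.6, 147 and 221 CPM in these WT_RL mice and 90.2 to 153 CPM in the other groups. The part of these tissues in the *Kcnj10* value and in other WT_RL values was not tested. *Kcnj16*, which forms channels with *Kcnj10*, was at 42.0, 32.7 and 27.8 CPM in KO_Basal, 23.4, 28.8 and 23.5 CPM in KO_OL and 21.9, 25.4 and 20.9 CPM in KO_RL, with overlap in KO_OL only, changes of -0.41 ± 0.13 (0.0364) and -0.55 ± 0.13 (0.00777). The highest value came from KO_Basal replicate 1, the library with hypothalamic RNA, and without it the adjusted p was 0.193 and 0.0523. The first call was also lost without KO_Basal replicate 2 (0.0705) or KO_OL replicates 1 (0.124) or 3 (0.121), and with GC content taken out (0.176), where the second was kept (0.0354).

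*Kcnj12*, of the strong rectifier Kir2.2, rose in WT_RL by 0.45 ± 0.12 (adjusted p = 0.0166), from 5.76, 6.99 and 7.07 CPM to 8.12, 10.7 and 9.42 CPM, with the call lost without WT_Basal replicate 1 (0.087) or WT_RL replicate 2 (0.0776), or with GC content taken out (0.0784). *Kcnj2*, of Kir2.1, was at 10.2 to 17.9 CPM and was not called. The G protein-gated subunits of pyramidal neurons were not called in the fit of all groups. *Kcnj3* was at 196, 219 and 191 CPM in WT_Basal and 157, 101 and 183 CPM in WT_OL (adjusted p = 0.0793), and *Kcnj6* ranged from 21.9 CPM in WT_OL replicate 2 to 55.7 CPM. *Kcnj9* was at 106, 114 and 133 CPM in KO_Basal and 76.5, 100 and 93.7 CPM in KO_RL, a difference of -0.38 ± 0.13 (0.0512). It was called lower with GC content taken out (-0.49, 0.0368), with GC content and length taken out (-0.57, 0.0161), without KO_RL replicate 2 (0.0423), with the filter on a mean of 1 CPM and in the fit of the compared groups.

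Of the 10 leak channel genes, *Kcnk12*, *Kcnk2* and *Kcnk4* were called. *Kcnk12* encodes THIK-2, a channel that carries little current by itself, and has the highest GC content of the 82 members (69.4%). It was at 4.83, 4.75 and 6.41 CPM in KO_Basal, 9.97, 9.67 and 8.78 CPM in KO_OL and 7.43, 8.67 and 8.58 CPM in KO_RL. The changes of 0.73 ± 0.12 (adjusted p = 0.000684) and 0.55 ± 0.12 (0.00489) were called in each fit without 1 mouse. With GC content taken out they were 0.57 (0.013) and 0.40 (0.0547). In WT_OL all 3 mice, at 8.07, 7.59 and 8.87 CPM, lay above WT_Basal at 5.39, 7.06 and 6.02 CPM, and the difference was not called (0.0764). *Kcnk2* encodes TREK-1, a mechano- and lipid-gated channel. It was at 58.1, 55.9 and 60.5 CPM in WT_Basal, 51.3, 53.0 and 50.7 CPM in WT_OL and 48.6, 40.8 and 47.5 CPM in WT_RL, and fell by 0.35 ± 0.08 on the log2 scale in WT_RL (0.00765), a call made under every alternative (-0.39 with GC content taken out, 0.00699). In KO mice it was at 59.9, 58.8 and 61.2 CPM untrained, 53.6, 51.5 and 53.1 CPM after original learning and 57.9, 47.3 and 56.4 CPM after reversal learning, all 6 trained mice below the untrained. The difference for KO_OL was -0.18 ± 0.08 (0.104) and was called with GC content taken out (-0.24, 0.0476), with GC content and length taken out (-0.25, 0.0317) and in the fit of the compared groups. *Kcnk4*, of TRAAK, rose in WT_RL by 0.47 ± 0.13 (0.0242), from 6.26, 6.46 and 5.73 CPM to 10.3, 8.43 and 8.05 CPM, with the call lost without WT_Basal replicates 1 (0.0644) or 3 (0.0927) or WT_RL replicate 1 (0.0938), or with GC content taken out (0.0879). *Kcnk1* (84.5 to 115 CPM), *Kcnk3* (11.0 to 17.4 CPM) and *Kcnk9* (5.93 to 10.4 CPM) were not called.

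*Kcnq1ot1* had the largest fitted change of the 82 members in the trained groups. It is a long RNA read antisense to *Kcnq1* from an imprinted region (chr7:143203458-143296549, minus strand), expressed from the paternal allele, and carries no channel sequence. It was at 9.06, 6.09 and 4.90 CPM in WT_Basal, 4.21, 3.23 and 3.51 CPM in WT_OL and 2.99, 3.34 and 4.18 CPM in WT_RL. In KO mice it was at 6.74, 5.82 and 8.72 CPM untrained, 2.15, 3.89 and 3.93 CPM after original learning and 4.98, 6.69 and 5.65 CPM after reversal learning. The change was -0.69 ± 0.20 in WT_OL (adjusted p = 0.0426), -0.74 ± 0.20 in WT_RL (0.0219) and -0.92 ± 0.20 in KO_OL (0.00436), and KO_RL was not called. The KO_OL call was made under every alternative. The WT_OL call was kept only without WT_Basal replicate 3 (0.0533 to 0.194 in the other 5 fits), and the WT_RL call was lost without WT_Basal replicate 1 (0.121) or WT_RL replicates 1 (0.0698) or 2 (0.064). Both were lost with GC content taken out (0.246 and 0.109). Reads of *Kcnq1* and *Kcnq1ot1* could be mixed, since exons of the 2 overlap on opposite strands and how strand was counted is not given in the sources used here. The same limit holds for *Kcnip4*, *Kcnk2*, *Kcnab1*, *Kcng2* and *Kcnn2* among the called members, and *Kcnab2* and *Kcnk4* overlap another gene on their own strand.

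Reversal learning was also compared with original learning. In WT mice 0 of 82 members passed an adjusted p of 0.05 by limma, against 0.261% of all genes. At an unadjusted p under 0.05 there were 21, against 16.4% of all genes, and 0 were called by voom on the reads. This count rested on 1 library. Without WT_OL replicate 3, 18 members were called, 15 of them higher in WT_RL, and 13.3% of all genes were called. The WT_OL mice left in that fit include replicate 2, the library that stood apart. In KO mice 0 members were called by limma or voom, against 0.0196% of all genes, with 2 at an unadjusted p under 0.05 (4.81% of all genes). These were *Kcnn2*, at 46.1, 43.5 and 41.2 CPM in KO_OL and higher in all 3 KO_RL mice (0.44 ± 0.12, adjusted p = 0.39), and *Kcnq1ot1* (0.67 ± 0.20, 0.654).

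Between genotypes no member was called in any state. For untrained mice limma and voom called 0 of 82, with 2 at an unadjusted p under 0.05, against 0.0196% of all genes called and 4% at an unadjusted p under 0.05. After original learning both called 0, with 14 at an unadjusted p under 0.05 (0.0652% of all genes called, 18% at the unadjusted p). After reversal learning both called 0, with 10 (0% and 4.93% of all genes), and over the 3 states together 0, with 11 (0.0326% and 8.36%). The difference between genotypes in the change from Basal to OL was called for 0 members by both, with 12 at an unadjusted p under 0.05 (0% and 12.4% of all genes), and that from OL to RL also for 0, with 8 (0% and 7.98%). Again WT_OL replicate 3 decided counts. Without it 17 of 82 members were called between KO_OL and WT_OL, 14 of them higher in KO_OL, against 16.5% of all genes. In the change from Basal to OL 5 of 82 differed, against 5.92% of all genes. These were *Kcna1*, *Kcnab1*, *Kcnh1*, *Kcnip2* and *Kcnj6*. The 2 WT_OL mice left then include replicate 2. Without WT_RL replicate 1, *Kcng4* and *Kcnj10* were called between KO_RL and WT_RL, and so were 0.385% of all genes.

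*Kcng4* came nearest to a genotype difference. WT mice had 6.36, 7.93 and 6.08 CPM untrained, 9.34, 9.70 and 9.82 CPM after original learning and 7.88, 13.7 and 14.3 CPM after reversal learning. KO mice had 4.70, 5.57 and 6.28 CPM, 7.61, 6.92 and 6.34 CPM, and 6.74, 5.89 and 5.77 CPM in the same order. The untrained groups overlapped and both trained groups were apart. Over the 3 states KO was lower by a log2 fold change of -0.50 ± 0.10 (95% interval -0.70 to -0.30, adjusted p = 0.0876), which became -0.51 (0.0455) with GC content taken out and was called without WT_RL replicate 1 (0.000629). After reversal learning the difference was -0.82 ± 0.16 (0.322), and 0.000244 without WT_RL replicate 1. Thalamus and habenula markers were summed to 94.6, 147 and 221 CPM in WT_RL and 108, 103 and 90.2 CPM in KO_RL. Their part in the *Kcng4* values was not tested.

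Other differences between genotypes stayed above the threshold. *Kcnip1* was at 19.5, 20.7 and 18.6 CPM in KO_RL, below all WT_RL mice (-0.36 ± 0.10, 95% interval -0.56 to -0.15, adjusted p = 0.578). *Kcna5* was at 6.34, 2.93 and 6.43 CPM in KO_RL and 1.78, 2.04 and 1.67 CPM in WT_RL (1.08 ± 0.31, 0.44 to 1.73, 0.625), and its KO_OL mice ranged from 1.53 to 4.77 CPM. *Kcnj10* was at 250, 206 and 222 CPM in KO_RL (-0.41 ± 0.15 against WT_RL, 0.796, and 0.00669 without WT_RL replicate 1). For *Kcnh1* the rise after original learning was larger in KO than in WT mice by 0.56 ± 0.18 (0.19 to 0.93, adjusted p = 0.388, and 0.0352 without WT_OL replicate 3), and for *Kcnip2* by 0.47 ± 0.14 (0.17 to 0.76, 0.388, and 0.0369 without WT_OL replicate 3). These intervals are not adjusted for the number of genes.

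**Figure D5:**
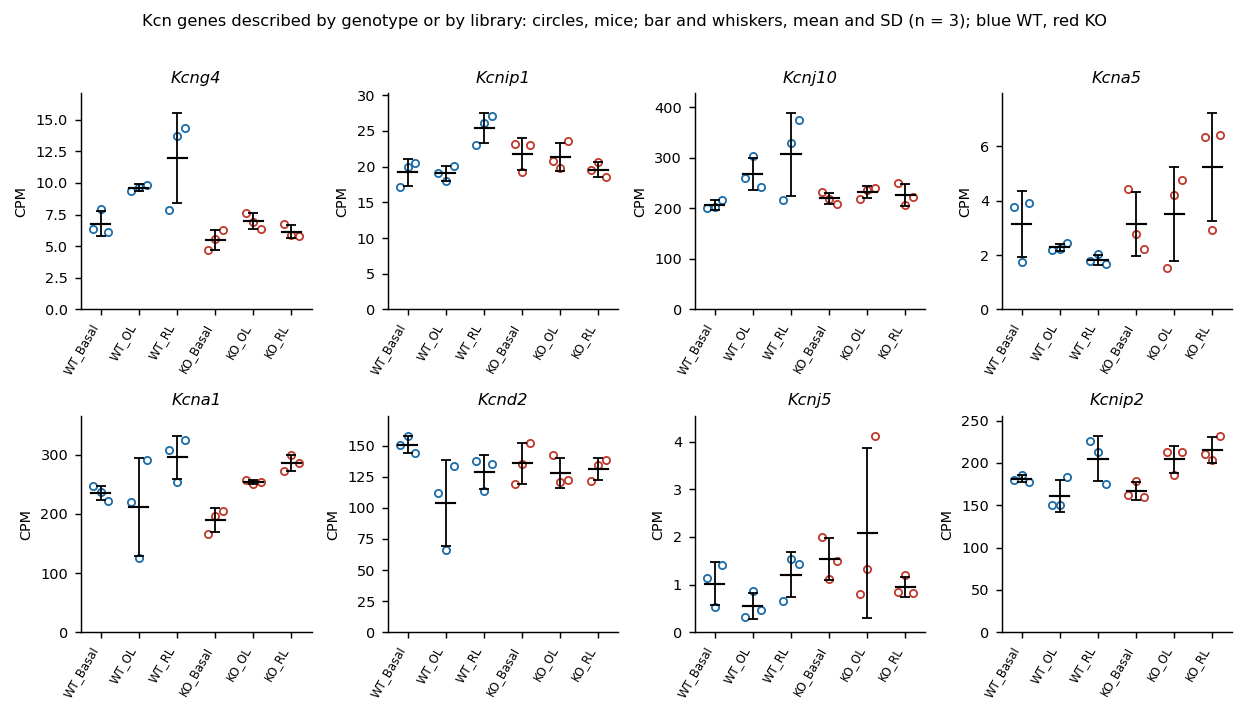
CPM per mouse (circles) with the mean and SD of 3 mice for 8 *Kcn* genes described by genotype or by library, WT in blue and KO in red. WT_OL replicate 2 gives the lowest circle of *Kcna1* (125 CPM) and *Kcnd2* (65.8 CPM), and the trained KO mice of *Kcng4* lie below the trained WT mice.

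The overlap between genotypes can be read from groups that share no mice. After original learning, 4 members were called in both, *Kcnip4*, *Kcnmb2*, *Kcnq1ot1* and *Kcnv1*, which is 66.7% of the 6 WT calls and 30.8% of the 13 KO calls. Over all genes these shares were 67.7% and 27.4%. After reversal learning, *Kcnab2*, *Kcnip4*, *Kcnmb2* and *Kcnv1* were called in both, 33.3% of 12 and 26.7% of 15, where the shares over all genes were 71.5% and 47.7%. Of the 15 members called in either genotype after original learning 11 had the same sign in both (73.3%, and 90.0% over all genes), with *Kcnh2*, *Kcnip2* and *Kcnj16* among those of opposite sign. Of the 23 after reversal learning 21 had (91.3%, and 95.9% over all genes), the others being *Kcne1l* and *Kcnip1*.

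The spread between mice was uneven over groups. On the log2 scale, the median SD of the members for WT mice was 0.11 untrained, 0.19 after original and 0.19 after reversal learning, where that of all genes was 0.09, 0.17 and 0.15. For KO mice it was 0.15, 0.12 and 0.15, where that of all genes was 0.10, 0.09 and 0.11. In WT_OL, 24 members had an SD above 0.3, and 45 of 82 had their lowest WT_OL value in replicate 2, compared with 41.3% of all genes. Their median transcript length was 5046 bases, and that of the other members 3392. *Kcnj5* had the highest SD in KO_OL, where it was at 0.797, 1.33 and 4.12 CPM.

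Of 27 partner genes of these channels, 25 were listed, among them 3 called in WT_OL, 4 in WT_RL, 6 in KO_OL and 7 in KO_RL, and 0 between genotypes. The shares of 12%, 16%, 24% and 28% lie near the 9.5%, 15.7%, 23.5% and 23.6% of all genes. *Ncs1*, a neuronal calcium sensor that binds Kv4 channels, was higher in all 4, by 0.45 ± 0.09 (adjusted p = 0.0066), 0.45 ± 0.09 (0.00391), 0.43 ± 0.09 (0.00331) and 0.43 ± 0.09 (0.0034). *Nedd4l*, a ubiquitin ligase that acts on KCNQ channels, and *Ank2*, an ankyrin, were higher in WT_RL, KO_OL and KO_RL, and *Calm2*, a calmodulin gene, was lower in the same 3. *Vapa* was lower in WT_OL and KO_OL, *Gng2* lower in WT_OL, *Gnb1* higher in KO_OL and KO_RL, and *Abcc9* higher in KO_RL. The immediate early genes *Fos*, *Arc*, *Egr1*, *Npas4*, *Junb* and *Nr4a1* were all called higher in WT_OL, 2 of 6 in WT_RL and 1 of 6 in each trained KO group. Summed, these genes were at 266 to 270 CPM in WT_Basal but at 276, 437 and 510 CPM in KO_Basal. After original learning they were at 542 to 785 CPM in WT and 495 to 759 CPM in KO mice. Between KO_OL and WT_OL 0 of the 6 were called. Choroid plexus markers were called higher in KO_OL (9 of 9) and KO_RL (8 of 9) and in no WT comparison. Their part in the KO channel changes was not tested.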

How the data were processed

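Hippocampal mRNA of 18 mice was sequenced as paired reads. The submitters' processing notes name mm10, STAR 2.5.1, edgeR 3.12.1 and R 3.3.0. According to the methods, the authors aligned reads with STAR, counted them on genes with its count module and applied TMM normalization in edgeR. The authors deposited 1 table of log2 values. Each value was found to be log2(CPM + 1), and 100% of them were whole reads within a tolerance of 0.01, although the methods describe a floor at 1. No filter was applied.

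The deposited log2 values entered limma 3.58.1 (R 4.3.3) with 1 mean per group over all 18 libraries, 12 residual degrees of freedom and a variance trend. Tests were two-sided, and p-values were adjusted by Benjamini-Hochberg over all 15329 genes. Fold changes are on the log2(CPM + 1) scale, which understates changes of low genes. Labels assigned the mice to groups. Nothing in the labels says more of how mice of a group were related. The fit was tested on simulated data.

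The members and lists were chosen with earlier results of these data known. Named were members with an adjusted p under 0.05 in any of 12 comparisons, a fixed set of well-known channel genes, and the called ones of 27 partners. *Kcna5*, *Kcnc4*, *Kcnh4*, *Kcnj5*, *Kcnj8* and *Kcnk5* were named after their values were seen. Some members are counted but not reported here by name. Alternatives were a pseudocount of 0.1, a floor of 1 CPM, a mean of at least 1 CPM, voom on recovered reads, a fit of the compared groups only, a block for the replicate number, removal of a trend with GC content (loess, span 0.5), and leaving out each mouse. Removal of trends with GC content and length was added after seeing the data. Transcript length and GC content of the longest transcript and positions came from GENCODE M21 on GRCm38, and promoters from RefSeq on GRCm38.p6. Pairs of libraries of 1 group differed by more than counting noise (chi-square per gene 8.83 to 105.0).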

Additional observations from a re-analysis of the deposited data

How the results depend on the processing

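The counts of called channel genes kept within 1.5 times of the values given under the pseudocount of 0.1, the floor of 1 CPM, the mean of at least 1 CPM and voom. Fitting only the compared groups gave 0 for WT_OL, 7 for WT_RL, 22 for KO_OL and stayed within 1.5 times (21) for KO_RL. All genes were then called at 0.483%, 9.94%, 34.5% and 28.9%. GC correction gave 0, 5, 7 and 6 for these 4 against untrained mice, and 1 (*Kcng4*) between genotypes over the 3 states. GC and length correction, chosen after seeing the data, gave 0, 4, 6 and 2, and 1. The shares of all genes were 2.04%, 6.91%, 14.1%, 16.8% and 0.0652% with GC correction. With GC and length correction they were 3.15%, 8.41%, 14.2%, 11.6% and 0.0848%. Leaving out 1 mouse gave 2 to 13 for WT_OL, 5 to 12 for WT_RL, 6 to 11 for KO_OL and 4 to 14 for KO_RL. The shares of all genes were 4.1% to 16.3%, 7.42% to 15.2%, 14.5% to 19.1% and 13.6% to 21%. For WT_RL against WT_OL there were 0 to 18 calls, and for KO_OL against WT_OL 0 to 17. The highest arose without WT_OL replicate 3, with 13.3% and 16.5% of all genes called. For KO_RL against WT_RL there were 0 to 2, and over the 3 states 0 to 1. Here the highest arose without WT_RL replicate 1, with 0.385% and 0.431% of all genes. For the genotype difference from Basal to OL there were 0 to 5. The 5 arose without WT_OL replicate 3, with 5.92% of all genes. The cause of these shifts was not tested, beyond the fewer mice in each fit. Of 895 refitted fold changes of single genes, 673 kept their side of the threshold, 206 lost and 16 gained a call, and 0 changed direction. Of 45 pairs of same-numbered libraries, 12 had deviations correlated over 0.1 (r = -0.60 to 0.514). Single libraries also carried trends with GC content and length, so these correlations cannot tell whether same-numbered mice were paired. With the replicate block the counts were 6, 11, 11 and 15 for the 4 comparisons with untrained mice and 0 for the others.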

Other observations

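Some members that were not called had wide spreads. *Kcnk5*, an acid-sensitive leak channel, was at 2.25 CPM in WT_OL replicate 1 and at 0.35 to 1.21 CPM in the other 17 mice. *Kcnh4* was at 2.20, 2.21 and 2.06 CPM in WT_RL and 6.49, 3.08 and 5.16 CPM in KO_RL, without overlap. *Kcnj8*, the vascular partner of *Abcc9* in potassium channels gated by ATP, was at 7.21 CPM in WT_OL replicate 2 and 2.58 to 4.42 CPM in the other mice. Pericyte markers were summed to 154 to 186 CPM in WT_OL and 115 to 149 CPM in the other groups.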
